A study of Mus musculus with 7 samples.

Results

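The mouse genes whose symbols are Ccdc or Cfap followed by a number make up the set described here: 153 of the 32531 gene symbols counted in the study. Ccdc stands for coiled-coil domain containing and Cfap for cilia and flagella associated protein. Symbols were taken by their spelling alone, and 8 of the 161 that fitted it were left out by name, among them the axonemal ruler genes Ccdc39 and Ccdc40. All libraries came from the Dcdc2a-TRAP mouse line ES2575. The mice were adult and carry a ribosomal protein tagged with green fluorescent protein (EGFP/Rpl10a), the tagged cells being those in which the Dcdc2a transgene is active. Brain tissue around the ventricles, the fluid-filled cavities of the brain, was dissected. RNA on tagged ribosomes, pulled down with antibodies to EGFP, gave 3 immunopurified (IP) libraries (IP 1, IP 3 and IP 4), and total RNA of the same kind of tissue from the same line gave 4 Input libraries (Input 1 to Input 4). The comparison asks which transcripts are enriched on the ribosomes of the tagged cells, which the study describes as ependymal cells.

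Ependymal cells line the ventricles and carry tufts of motile cilia that move cerebrospinal fluid. A motile cilium is built on an axoneme, a ring of doublet microtubules around a central pair, with dynein arms that bend it and radial spokes that link the ring to the centre. Inner proteins brace the doublets, and basal bodies, which are modified centrioles, anchor each cilium in the cell. The Ccdc and Cfap symbols were given to proteins of many kinds, so the set holds axonemal and centriolar proteins beside proteins of the nucleus, the endomembranes, mitochondria, cell contacts and the male germ line.

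Motile cilium genes are regulated by RFX factors, which bind the X-box, and by the forkhead factor Foxj1. Both strands of each promoter, from 250 bases before to 50 after a gene's start in the RefSeq table of the GRCm38.p6 build, were searched for a loosened X-box (GTNNCC, any 3 bases, then GNNAC), for GTTNCCA, which can lie inside the X-box, and for TGTTTAC, a forkhead core. Of the members with an entry, 20 were called higher in IP in the comparison below and 91 were tested without a call. The loosened X-box lay in a promoter of 5 of the 20 called members (25.0%) and of 8 of the 91 uncalled members (8.79%), beside 5.26% of the 27025 genes in the table. GTTNCCA lay in a promoter of 7 called members (35.0%) and 24 uncalled members (26.4%), beside 18.8% of all genes. TGTTTAC lay in a promoter of 2 called members (10%) and 5 uncalled members (5.49%), beside 4.05% of all genes. Of 10 further members with an entry, which had too few counts to be tested in the comparison, 2 (20%) held the loosened X-box, 4 (40%) GTTNCCA and 0 TGTTTAC, so the first motif was about as frequent and the second more frequent there than among called members. These shares are descriptions and were not tested.

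The promoters of the 5 called members with the loosened X-box are printed because they show where the motif lies relative to the start. Each is 300 bases on the plus strand of GRCm38.p6, read 5′ to 3′, with matches to the 3 motifs in capitals. The promoter of Cfap44 is chr16:44394549-44394848, that of Cfap45 chr1:172520880-172521179, that of Cfap61 chr2:145934534-145934833, that of Ccdc74a chr16:17646220-17646519, and that of the most downstream listed start of Cfap126 chr1:171122795-171123094.
Cfap44: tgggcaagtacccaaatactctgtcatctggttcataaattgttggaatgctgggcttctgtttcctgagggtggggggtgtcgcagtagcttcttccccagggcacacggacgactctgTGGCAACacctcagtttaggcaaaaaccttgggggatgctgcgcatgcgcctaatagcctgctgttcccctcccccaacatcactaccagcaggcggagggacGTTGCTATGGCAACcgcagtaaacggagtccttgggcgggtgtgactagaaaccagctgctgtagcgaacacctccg
Cfap45: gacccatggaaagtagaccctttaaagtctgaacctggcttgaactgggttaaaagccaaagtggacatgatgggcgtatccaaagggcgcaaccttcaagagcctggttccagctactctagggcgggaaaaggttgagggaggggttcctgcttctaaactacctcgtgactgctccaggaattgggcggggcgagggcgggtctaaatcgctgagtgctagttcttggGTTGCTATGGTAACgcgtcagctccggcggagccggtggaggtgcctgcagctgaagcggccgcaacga
Cfap61: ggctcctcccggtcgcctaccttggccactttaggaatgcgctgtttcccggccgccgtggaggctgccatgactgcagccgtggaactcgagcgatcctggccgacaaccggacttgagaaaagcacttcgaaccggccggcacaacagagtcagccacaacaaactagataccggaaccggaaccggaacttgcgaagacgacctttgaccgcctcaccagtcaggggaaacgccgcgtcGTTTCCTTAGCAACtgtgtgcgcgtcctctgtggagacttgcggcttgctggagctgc
Ccdc74a: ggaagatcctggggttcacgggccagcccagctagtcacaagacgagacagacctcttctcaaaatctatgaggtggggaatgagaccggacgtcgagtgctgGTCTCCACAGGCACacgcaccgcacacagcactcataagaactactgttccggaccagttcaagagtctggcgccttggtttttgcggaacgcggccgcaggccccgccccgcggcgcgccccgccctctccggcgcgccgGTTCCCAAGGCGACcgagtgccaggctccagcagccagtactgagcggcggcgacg
Cfap126: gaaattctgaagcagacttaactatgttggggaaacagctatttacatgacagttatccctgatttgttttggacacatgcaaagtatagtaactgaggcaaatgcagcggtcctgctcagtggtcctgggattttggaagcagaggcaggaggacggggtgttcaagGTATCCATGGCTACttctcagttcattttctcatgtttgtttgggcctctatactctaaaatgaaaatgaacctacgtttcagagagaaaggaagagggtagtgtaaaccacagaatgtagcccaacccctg
Read along the printed strand, the match began 27 bases before the start in Cfap44, 19 in Cfap45 and 8 in Cfap61. In Cfap44 and Cfap45 the motif lies on the other strand, so the capitals there show its reverse complement. Ccdc74a had matches beginning 147 and 6 bases before its start. In Cfap126 the match began 82 bases before the start, and its other listed promoters held none of the motifs. Such positions were also seen in uncalled members. Among those named in this report, it began 42 and 6 bases before the start in Ccdc184 and 48 in Ccdc13. It began 94 bases before the start in Ccdc47 and 250 in Ccdc85a.

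The libraries held between 42422439 and 52175180 counts in genes in IP and between 37203427 and 44754345 in Input, so that 3 counts, taken as the floor of detection, correspond to 0.0585 to 0.0819 CPM (counts scaled to the size of the library, with TMM factors). Of the 153 members, 138 had enough counts to be tested, 15 were not tested and 4 of these had no count in any library. Reads that fitted more than 1 gene, and so were counted for none, were 1.51 to 2.01% of reads in IP and 9.33 to 12.94% in Input. Of the members, 61 overlap another gene model, and the part of this difference in their values was not tested. Library IP 1 stood apart. The 7 listed markers of ependymal cells, among them Ccdc153, Ccdc121 and Cfap44, summed to 149 CPM in IP 1, 1830 CPM in IP 3 and 1630 CPM in IP 4, against 17.2 to 34.6 CPM in Input. All 7 of these markers were called higher in IP. The list was chosen with earlier results of these data known and holds members, so these calls are not independent evidence. Dcdc2a itself stood at 43.6, 411 and 175 CPM in IP 1, IP 3 and IP 4, against 27.7 to 73.9 CPM in Input, so that IP 1 lay within the Input range. With all libraries Dcdc2a was not called higher (log2 fold 2.21 ± 0.63, adjusted p in edgeR 0.0743). The counts of called members and those of the role lists are therefore also given without IP 1. That library was singled out by low levels of Dcdc2a and of markers that include members. Counts without it therefore describe the set and are not independent support.

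Markers of other cells moved too. Those of mural cells and fibroblasts summed to 96.0, 1300 and 648 CPM in IP 1, IP 3 and IP 4, against 35.2 to 86.9 CPM in Input, and 6 of 8 were called higher. Astrocyte markers summed to 316 to 1080 CPM in IP and 374 to 424 CPM in Input with 1 of 6 called higher, and endothelial markers to 4.73 to 17.1 CPM in IP and 5.04 to 6.74 CPM in Input with 1 of 5 called higher. Neuron markers summed to 6810 to 8190 CPM in IP and 9590 to 12200 CPM in Input, with 0 of 7 called. Oligodendrocyte markers summed to 2540 to 4170 CPM in IP and 4130 to 5650 CPM in Input, with 2 of 6 called lower. Microglial sums were 61.9 to 103 CPM in IP and 60.9 to 88.1 CPM in Input, and choroid plexus sums were 1270 to 3050 CPM in IP and 2270 to 4120 CPM in Input. In each of these lists 0 of 6 markers were called. No listed marker was at 0 in every library. The part of these other cells in the members' values was not tested. In bulk libraries such as these, fewer cells of a type and less RNA per cell cannot be told apart.

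Most members in the axonemal role lists were higher in IP, and most other members did not pass the test. The role lists were chosen with earlier results of these data known, so this contrast describes the set and does not test it. Of the 138 tested members, 26 (18.8%) were higher in IP and 0 were lower by edgeR's quasi-likelihood test at an adjusted p under 0.05, against 3.64% of all 17375 tested genes higher and 2.16% lower. Some of the 26, among them Ccdc121, Ccdc78 and Ccdc89, passed the count filter only through their IP libraries, so their calls are not support. Before adjustment 43 members were higher at a p under 0.05 and 9 lower, against 13.3% and 9.4% of all genes. The median log2 fold of IP over Input was 0.52 over the tested members and 0.06 over all genes. Positive folds were seen in 91 members, against 53.1% of all genes. Every IP library lay above every Input library in 29 members, against 9.55% of all genes, and below every Input in 13 (9.42%), against 10.4% of all genes.

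The size of that group depended on the model and on single libraries. DESeq2 called 34 members higher and 6 lower, against 8.03% and 5.54% of all genes, and limma-voom called 3 higher (Ccdc108, Cfap44 and Cfap69) and 0 lower, against 0.357% and 0.984%. Same-numbered IP and Input libraries were run on the same sequencing lane, and a fit with that number as a replicate block called 6 members higher and 0 lower, against 0.553% and 0.19% of all genes. Of these, 5 were among the 26 (Ccdc108, Ccdc113, Ccdc146, Ccdc33 and Cfap126), and Ccdc24 was added. Without IP 1, 44 members were higher, all 26 among them, and 5 were lower, against 12.5% and 9.55% of all genes. Without IP 3, 13 were higher, against 1.91% of all genes, and Ccdc85a was lower, against 1.98%. Without IP 4, Input 1 or Input 2, Ccdc153 was the only member called, against 0.0556, 0.123 and 0.0704% of all genes. Without Input 3 or Input 4 edgeR called 0 members, against 0.0235 and 0.0236% of all genes, with 39 and 38 higher at an unadjusted p under 0.05. In these 5 fits 0 members were lower, against 0.106, 0.176, 0.141, 0.0941 and 0.112% of all genes, and 7 or 8 were at an unadjusted p under 0.05. The shares of all genes at an unadjusted p were not computed for these fits. With all 7 libraries they were 13.3% higher and 9.4% lower in edgeR. Adjusted p values over these leave-one-out fits reached 0.0567 for Ccdc153 and 0.0584 for Ccdc121.

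**Figure D1:**
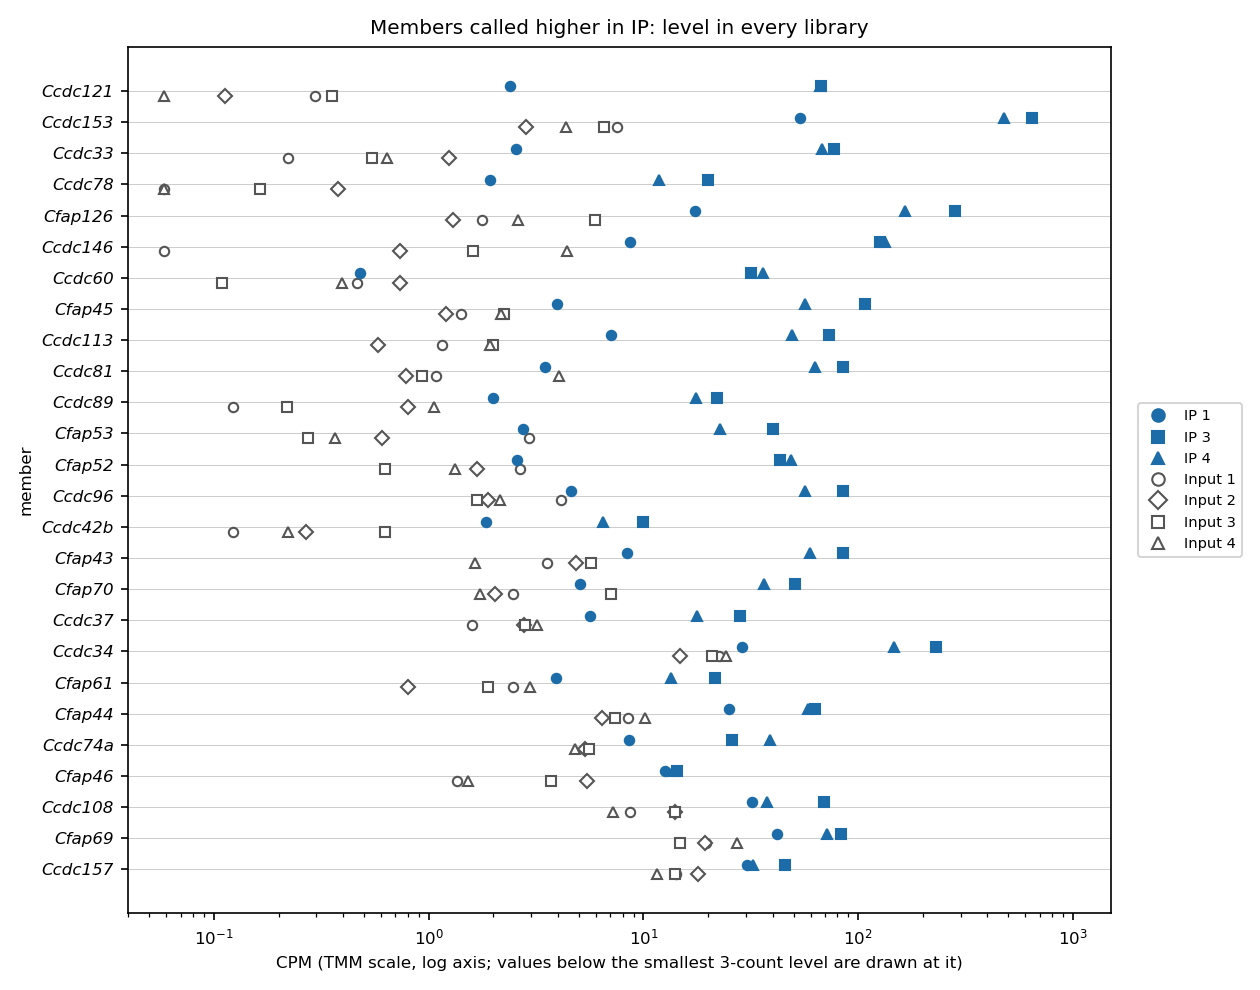
Level of each of the 26 members called higher in IP, in CPM on a log axis, with 1 row per gene in order of fold. Filled symbols are the 3 IP libraries and open symbols the 4 Input libraries. IP 3 and IP 4 lie right of every Input in all 26 rows, and IP 1 does so in 21.

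The doublet wall list holds proteins in or on the doublet microtubules, and 4 of its 6 tested members were higher in IP (median log2 fold 4.35). Cfap126, the Flattop protein of the doublet and basal body, stood at 17.4, 281 and 166 CPM in IP 1, IP 3 and IP 4, against 1.77, 1.30, 5.98 and 2.60 CPM in Input 1 to 4. All 3 IP libraries lay above all Inputs. Its log2 fold was 5.74 ± 0.90 (SE), with an adjusted p of 0.0147 in edgeR and 0.0306 with the replicate block. Cfap45, an inner protein of the doublet, stood at 3.94, 108 and 56.7 CPM in IP and 1.42, 1.21, 2.24 and 2.16 CPM in Input. The groups did not overlap, the log2 fold was 5.0 ± 0.88, and the adjusted p was 0.0193 in edgeR and 0.11 with the replicate block.

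Cfap52 and Cfap53, which are also inner proteins, showed a different order in IP 1. Cfap52 stood at 2.58, 43.3 and 48.8 CPM in IP and 2.67, 1.68, 0.628 and 1.33 CPM in Input. Cfap53 stood at 2.74, 40.3 and 22.8 CPM in IP and 2.94, 0.604, 0.273 and 0.368 CPM in Input. In both genes IP 1 lay just below Input 1, its lane partner, while IP 3 and IP 4 lay far above every Input. Their log2 folds were 4.32 ± 0.88 and 4.38 ± 1.05, with adjusted p of 0.0274 and 0.0442 in edgeR, and 0.241 and 0.26 with the replicate block.

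The other 2 doublet members did not pass the test. Ccdc173, an inner protein now named Cfap210, stood at 2.82, 24.9 and 9.83 CPM in IP and 1.39 to 2.95 CPM in Input (log2 fold 2.48 ± 0.66, adjusted p in edgeR 0.0565). Cfap20, which seals the inner junction of the doublet, stood at 43.2, 119 and 74.5 CPM in IP and 53.6, 54.2, 46.1 and 42.6 CPM in Input, with a log2 fold of 0.68 ± 0.31 and an adjusted p of 0.222 in edgeR. Without IP 1 both genes passed, at an adjusted p of 0.000697 for Ccdc173 and 0.00497 for Cfap20.

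In the central pair list 4 of 6 members were higher, and the log2 folds had a median of 2.01. Ccdc108, now named Cfap65, stood at 32.2, 69.1 and 37.6 CPM in IP and 8.68, 14.1, 14.0 and 7.20 CPM in Input. Cfap69 stood at 42.1, 83.5 and 71.7 CPM in IP and 19.6, 19.3, 14.8 and 27.2 CPM in Input. Neither gene's groups overlapped, and IP 1 was well clear of Input in both. The log2 fold was 2.08 ± 0.37 for Ccdc108 (adjusted p in edgeR 0.017, with the replicate block 0.0419) and 1.70 ± 0.30 for Cfap69 (0.0173, with the replicate block 0.0982).

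Cfap46, Cfap54 and Cfap74 belong to the C1d projection of the central pair, and 1 of the 3 passed the test. Cfap46 stood at 12.6, 14.4 and 13.8 CPM in IP and 1.35, 5.48, 3.71 and 1.52 CPM in Input, so that the 3 IP libraries nearly coincided. Its log2 fold was 2.17 ± 0.54 (adjusted p in edgeR 0.0449, with the replicate block 0.0857). Cfap54 stood at 2.38, 6.63 and 5.58 CPM in IP and 0.0981 to 2.24 CPM in Input (log2 fold 1.94 ± 0.94, adjusted p in edgeR 0.253), a gap between groups that the test did not call. Cfap74 was highest in IP 1, at 23.7 CPM, with 9.25 and 8.80 CPM in IP 3 and IP 4, against 7.28 to 14.1 CPM in Input. Its log2 fold was 0.44 ± 0.44 (adjusted p in edgeR 0.619) and changed sign without IP 1. Whether the folds of these genes differ from each other was not tested. Cfap70, listed with the central pair, stood at 5.09, 51.0 and 36.4 CPM in IP and 1.74 to 7.10 CPM in Input (log2 fold 3.21 ± 0.75, adjusted p in edgeR 0.04, with the replicate block 0.132).

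Of the 9 spoke and dynein regulators 7 were higher, and the median log2 fold was 4.10. Cfap43 and Cfap44 form the tether that holds the inner dynein heads to the doublet. Cfap44 stood at 24.9, 62.8 and 58.7 CPM in IP and 8.46, 6.42, 7.37 and 10.2 CPM in Input, without overlap. This was a log2 fold of 2.59 ± 0.36, with an adjusted p of 0.011 in edgeR and 0.0593 with the replicate block. Cfap43 stood at 8.37, 84.9 and 59.7 CPM in IP and 1.65 to 5.73 CPM in Input (log2 fold 3.69 ± 0.71, adjusted p in edgeR 0.0234, with the replicate block 0.125).

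Ccdc113 and Ccdc96 bridge the third radial spoke and the nexin link. Ccdc113 stood at 7.03, 73.1 and 49.1 CPM in IP and 1.15, 0.581, 1.99 and 1.92 CPM in Input. Its groups did not overlap, and its log2 fold of 4.93 ± 0.75 had an adjusted p of 0.0129 in edgeR and 0.0412 with the replicate block. Ccdc96 stood at 4.59, 84.8 and 56.4 CPM in IP and 4.12, 1.88, 1.67 and 2.14 CPM in Input (log2 fold 4.31 ± 0.81, adjusted p in edgeR 0.0231, with the replicate block 0.213). Here IP 1 was just above Input 1, while IP 3 and IP 4 were far above every Input.

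Cfap61, at the base of the third spoke, stood at 3.92, 21.5 and 13.5 CPM in IP and 0.805 to 2.95 CPM in Input (log2 fold 2.67 ± 0.64, adjusted p in edgeR 0.0405). Ccdc37 and Ccdc42b, now named Cfap100 and Cfap73, are known from Chlamydomonas as the modifier of inner dyneins. Ccdc37 stood at 5.61, 28.1 and 17.8 CPM in IP and 1.59 to 3.19 CPM in Input (log2 fold 2.73 ± 0.55, adjusted p in edgeR 0.0238). Ccdc42b stood at 1.84, 9.98 and 6.46 CPM in IP and 0.123 to 0.628 CPM in Input (log2 fold 4.29 ± 0.87, adjusted p in edgeR 0.0249). With the replicate block the adjusted p was 0.215 for Cfap61, 0.0922 for Ccdc37 and 0.096 for Ccdc42b. Of the list, Cfap57, an inner dynein factor, and Cfap58 did not pass the test. Cfap57 stood at 2.58, 11.9 and 15.1 CPM in IP and 0.0224 to 1.72 CPM in Input (log2 fold 4.16 ± 1.25, adjusted p in edgeR 0.0835). Cfap58 stood at 0.400, 5.77 and 3.71 CPM in IP and 0 to 0.628 CPM in Input (log2 fold 4.10 ± 1.5, adjusted p in edgeR 0.139).

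Over these 3 lists together, 15 of 21 axonemal members were higher and 0 lower, beside 3.64% and 2.16% of all genes. The median log2 fold of these members was 3.21. None was lower at an unadjusted p under 0.05 in edgeR or at an adjusted p in DESeq2, and 18 were higher in each. Without IP 1, 19 were higher, against 12.5% of all genes, and with the replicate block 3, against 0.553%. Without IP 3, 9 were higher, against 1.91% of all genes. Without IP 4 or any single Input library 0 were higher, against 0.0235 to 0.123%. In the latter edgeR fits 17 or 18 were higher at an unadjusted p under 0.05. With all 7 libraries 13.3% of all genes were. The 8 genes with such symbols that were left out by name gave 6 of 8 higher with a median of 2.90, and 24 motile cilium genes with other names gave 15 of 24 with a median of 3.34. Without IP 1 these were 7 of 8 and 20 of 24, beside 12.5% of all genes.

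**Figure D2:**
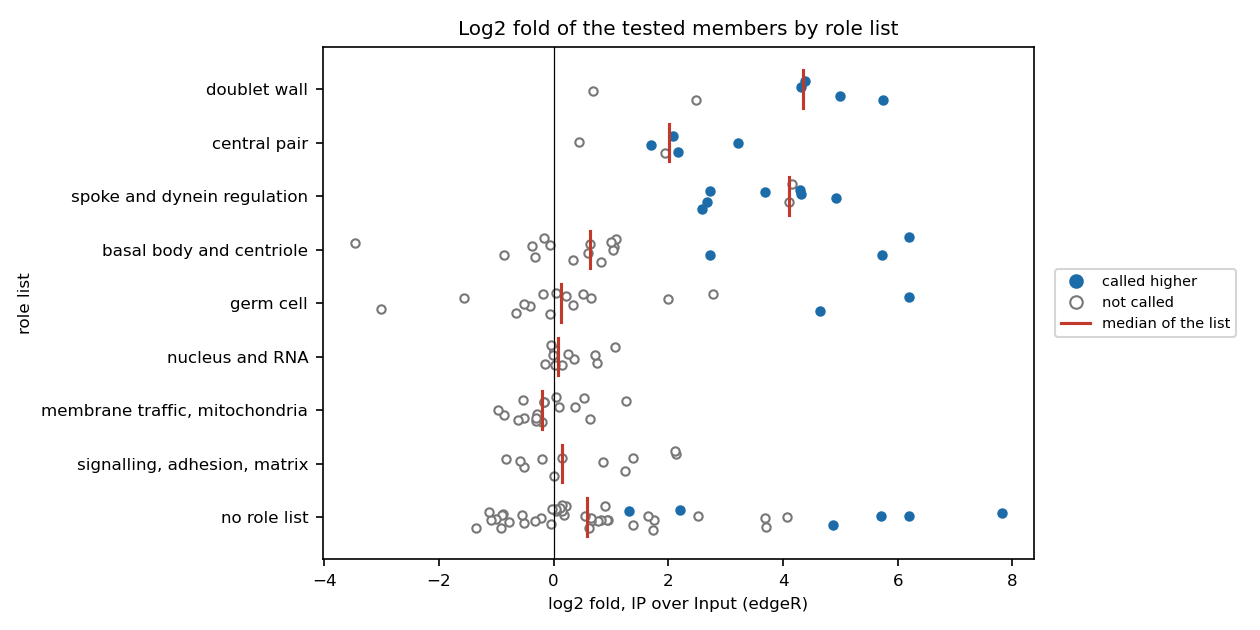
Log2 fold of IP over Input for each of the 138 tested members, grouped by role, with filled points for the 26 called higher, open points for the rest and a red bar at each list's median. The 3 axonemal lists at the top have medians of 4.35, 2.01 and 4.10, and the lists for the nucleus, membrane traffic and signalling lie around 0.

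Basal body and centriole genes were mixed: 3 of 17 were higher, beside 3.64% of all genes, and the median log2 fold was 0.63. Ccdc78, a protein of the deuterosome, the structure on which multiciliated cells build new centrioles, stood at 1.92, 19.9 and 11.8 CPM in IP and 0.0491, 0.380, 0.164 and 0 CPM in Input. Input 1 and Input 4 were under the floor of detection. Its groups did not overlap and its log2 fold was 6.20 ± 1.17, with an adjusted p of 0.0205 in edgeR and 0.0552 with the replicate block. Ccdc78 passed the count filter only through IP, so its call is not support. Ccdc146, a centriolar protein, stood at 8.67, 127 and 133 CPM in IP and 0.0491, 0.738, 1.61 and 4.4 CPM in Input. Its log2 fold was 5.72 ± 1.23, with an adjusted p of 0.0336 in edgeR and 0.00586 with the replicate block, so pairing lowered its p. Input 1, the lane partner of IP 1, was under the floor of detection of 0.0736 CPM for this gene. Ccdc34 stood at 28.9, 230 and 147 CPM in IP and 22.4, 14.8, 20.8 and 24.3 CPM in Input (log2 fold 2.72 ± 0.55, adjusted p in edgeR 0.0285, with the replicate block 0.168).

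The other 14 did not pass. Ccdc92, a centriolar protein, stood at 58.6, 94.3 and 149 CPM in IP and 142, 160, 124 and 97.9 CPM in Input (log2 fold -0.38 ± 0.31, adjusted p in edgeR 0.516), with overlapping groups. Ccdc13, a protein of centriolar satellites, stood at 2.12, 14.3 and 4.31 CPM in IP and 2.30 to 4.12 CPM in Input (log2 fold 1.09 ± 0.66, adjusted p in edgeR 0.376), a fold that rests on IP 3. Without IP 1, Ccdc138 and Ccdc176 also passed, which made 5 of 17, and Ccdc77 was lower. In that fit 12.5% of all genes were higher and 9.55% lower, so the rise is not read as particular to this list. Ccdc138 stood at 3.92, 27.2 and 27.4 CPM in IP and 7.18 to 12.7 CPM in Input. With the replicate block 1 of the 17 was higher, beside 0.553% of all genes. Without IP 3 it was also 1, beside 1.91% of all genes. Without IP 4 or any single Input it was 0, beside 0.0235 to 0.123% of all genes. In the latter edgeR fits 3 or 4 of the 17 were higher at an unadjusted p under 0.05. With all 7 libraries 13.3% of all genes were, so these counts are not read as support.

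Of the 27 genes known from the germ line, 11 had too few counts to be tested. Of the 16 tested, 2 were higher in IP and 0 were lower, beside 3.64% and 2.16% of all genes. The median log2 fold was 0.13. No germ line gene was lower at an unadjusted p under 0.05 in edgeR or at an adjusted p in DESeq2. Ccdc33 stood at 2.54, 77.4 and 67.9 CPM in IP and 0.221, 1.25, 0.546 and 0.639 CPM in Input, without overlap between the groups. Its log2 fold was 6.20 ± 1.06, with an adjusted p of 0.018 in edgeR and 0.0356 with the replicate block. Other gene models overlap 13.7% of its exons, where reads may have been left uncounted or may come from those models. Ccdc89 stood at 2.0, 21.9 and 17.6 CPM in IP and 0.123, 0.805, 0.218 and 1.06 CPM in Input, also without overlap (log2 fold 4.64 ± 0.95, adjusted p in edgeR 0.0252, with the replicate block 0.0569). It passed the count filter only through IP, so its call is not support. Ccdc87 missed the threshold at 6.33, 30.7 and 32.5 CPM in IP and 0.663 to 5.68 CPM in Input (log2 fold 2.78 ± 0.77, adjusted p in edgeR 0.0649, without IP 1 0.00273). An abundant gene of this list, Ccdc136, a protein of the sperm acrosome, stood at 55.2, 35.4 and 65.3 CPM in IP and 66.4 to 81.9 CPM in Input (log2 fold -0.51 ± 0.25, adjusted p in edgeR 0.246).

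None of the 12 nuclear and RNA-processing members, the 17 members of membrane traffic and mitochondria or the 11 members of signalling, adhesion and matrix passed edgeR's test in either direction. At an unadjusted p under 0.05 the nuclear list had 2 higher and 0 lower, the membrane list 0 higher and 1 lower, and the signalling list 4 higher and 2 lower, beside 13.3% and 9.4% of all genes. DESeq2 called 1 higher and 0 lower in the nuclear list, 0 higher and 1 lower in the membrane list, and 1 higher and 1 lower in the signalling list, beside 8.03% and 5.54% of all genes. With 3.64% of all genes called higher and 2.16% lower by edgeR, no calls in 3 lists of this size do not set them apart from other genes. The median log2 folds were 0.09, -0.20 and 0.15 in the same order. Several of these genes were abundant and even. Ccdc88a, which codes for the actin-binding protein girdin, stood at 192, 186 and 157 CPM in IP and 164, 176, 172 and 201 CPM in Input. The groups overlapped fully, and the log2 fold was -0.00 ± 0.17 (adjusted p in edgeR 0.998), with a sign that turned under total-count scaling, without IP 4 and without Input 4. Ccdc47, a protein of the endoplasmic reticulum, stood at 131, 113 and 111 CPM in IP and 154, 148, 160 and 116 CPM in Input (log2 fold -0.29 ± 0.19, adjusted p in edgeR 0.406).

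Some genes of these lists differed between the IP libraries themselves. Ccdc22, of the endosomal CCC complex, stood at 26.2 CPM in IP 1, 2.55 CPM in IP 3 and 7.33 CPM in IP 4, against 3.09 to 6.6 CPM in Input (log2 fold 1.26 ± 0.67, adjusted p in edgeR 0.305). Other gene models overlap 100% of its exons, so its reads may have been left uncounted or may come from those models. Ccdc88c, which codes for the Wnt signalling protein Daple, was likewise highest in IP 1, at 85.9, 33.5 and 30.1 CPM in IP and at most 37.0 CPM in Input (log2 fold 0.86 ± 0.38, adjusted p in edgeR 0.217). Ccdc80, a secreted matrix protein, had the opposite order, at 1.62, 12.8 and 24.0 CPM in IP and 0.712 to 6.43 CPM in Input (log2 fold 2.14 ± 0.87, adjusted p in edgeR 0.178, without IP 1 0.0078). Ccdc3, a secreted protein, stood at 6.23, 63.7 and 43.1 CPM in IP and 3.31 to 16.8 CPM in Input (log2 fold 2.12 ± 0.73, adjusted p in edgeR 0.125, without IP 1 0.00139), and another model overlaps 69.1% of its exons. In both secreted genes IP 1 lay within the Input range and IP 3 and IP 4 above it. Ccdc137 stood at 28.8, 19.9 and 47.6 CPM in IP and 11.3 to 19.0 CPM in Input (log2 fold 1.08 ± 0.34, adjusted p in edgeR 0.0954), and Ccdc59 at 17.3, 26.5 and 24.5 CPM in IP and 9.88 to 16.6 CPM in Input (log2 fold 0.73 ± 0.31, adjusted p in edgeR 0.19). In Ccdc137 and Ccdc59 every IP library lay above every Input without the test being passed.

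Of the 48 members outside the role lists, 44 were tested and 6 were higher in IP, beside 3.64% of all genes. Their median log2 fold was 0.58. Ccdc153, a coiled-coil protein of the nexin-dynein regulatory complex that serves as a marker of ependymal cells, was in no role list although that complex is axonemal. It lies on chromosome 9 (GRCm38, 44240676 to 44247306, plus strand). It stood at 53.7, 642 and 476 CPM in IP and 7.51, 2.84, 6.53 and 4.37 CPM in Input, a mean of 391 ± 303 CPM (SD, n = 3) in IP and 5.31 ± 2.10 CPM (SD, n = 4) in Input. Even IP 1 was above every Input. Its log2 fold of 6.20 ± 0.78 had an adjusted p of 0.0108 in edgeR and 0.0606 with the replicate block. Ccdc121 (chromosome 1, 181509633 to 181511451, minus strand) had the highest fold of all tested members. It stood at 2.38, 67.0 and 66.6 CPM in IP and 0.294, 0.112, 0.355 and 0.0491 CPM in Input, with Input 4 under the floor of detection. Its log2 fold was 7.81 ± 1.15, with an adjusted p of 0.0129 in edgeR and 0.0987 with the replicate block. Ccdc121 passed the count filter only through IP, so its fold and call describe it and are not support.

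The other 4 were Ccdc60, Ccdc81, Ccdc74a and Ccdc157. Ccdc60 stood at 0.481, 31.6 and 36.0 CPM in IP and 0.466, 0.738, 0.109 and 0.393 CPM in Input, so IP 1 lay within the Input range while IP 3 and IP 4 stood far above (log2 fold 5.71 ± 1.20, adjusted p in edgeR 0.0311, with the replicate block 0.241). Ccdc81 stood at 3.48, 84.8 and 62.9 CPM in IP and 1.08, 0.782, 0.928 and 4.05 CPM in Input (log2 fold 4.88 ± 1.01, adjusted p in edgeR 0.03, with the replicate block 0.129). For Ccdc81 the highest Input lay just above IP 1. Ccdc74a stood at 8.59, 25.8 and 39.0 CPM in IP and at an even 4.81 to 5.6 CPM in Input (log2 fold 2.21 ± 0.46, adjusted p in edgeR 0.0263, with the replicate block 0.16). Ccdc157 had the smallest fold of the 26, at 30.4, 45.8 and 32.4 CPM in IP and 14.2, 17.9, 14.1 and 11.6 CPM in Input, and its groups did not overlap (log2 fold 1.32 ± 0.28, adjusted p in edgeR 0.0269, with the replicate block 0.111).

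Several genes with large folds in this remainder missed the threshold. Ccdc24 stood at 2.62, 28.7 and 53.6 CPM in IP and 0.0981, 1.65, 0.601 and 4.37 CPM in Input (log2 fold 4.07 ± 1.18, adjusted p in edgeR 0.0807). Each IP exceeded the Input of its own lane, and with the replicate block Ccdc24 was higher (adjusted p 0.0306), but other models overlap 71.9% of its exons. Ccdc170 stood at 1.14, 33.3 and 29.3 CPM in IP and 0, 1.83, 0.109 and 4.54 CPM in Input (log2 fold 3.71 ± 1.51, adjusted p in edgeR 0.185). Ccdc102a stood at 0.741, 4.05 and 11.7 CPM in IP and 1.30, 0.179, 0.191 and 0.0246 CPM in Input (log2 fold 3.69 ± 1.26, adjusted p in edgeR 0.118). Ccdc68, not tested with all libraries, stood at 0, 3.96 and 1.40 CPM in IP and 0.0736, 0, 0 and 0.0246 CPM in Input. It was called higher without IP 1, where it passed the count filter only through IP 3 and IP 4, so that call is not support.

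On the lower side, the 5 members with the smallest p among negative folds all missed the threshold. Ccdc28a stood at 11.7, 5.46 and 9.13 CPM in IP and 14.5, 29.5, 17.4 and 27.8 CPM in Input, so every IP was below every Input (log2 fold -1.35 ± 0.40, adjusted p in edgeR 0.0755). Ccdc85a, of a family found at cell junctions, stood at 30.1, 46.2 and 21.9 CPM in IP and 55.0, 59.6, 60.2 and 58.1 CPM in Input, likewise without overlap (log2 fold -0.83 ± 0.27, adjusted p in edgeR 0.103). The log2 folds of Ccdc149, Ccdc186, which acts in dense-core vesicle sorting, and Ccdc184 were -0.92 ± 0.29, -0.86 ± 0.27 and -0.89 ± 0.29, with adjusted p of 0.0902, 0.0952 and 0.0983 in edgeR. DESeq2 called these 5 and Ccdc82 lower. Without IP 1, edgeR called Ccdc28a, Ccdc149, Ccdc82, Ccdc77 and Ccdc106 lower.

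Of 17 tested Cfap symbols 10 (58.8%) were higher, and their log2 folds had a median of 2.67. Of 121 tested Ccdc symbols 16 (13.2%) were higher, with a median of 0.21, beside 3.64% of all genes higher. With the replicate block 1 of 17 Cfap symbols and 5 of 121 Ccdc symbols were higher, beside 0.553% of all genes. The difference between the prefixes was not tested. Several of the higher Ccdc genes have since been renamed Cfap, among them Ccdc108, Ccdc37 and Ccdc42b. Members without an overlapping gene model gave 16 of 84 higher and those with one 10 of 54. Without IP 1 these were 29 of 85 and 15 of 55, and the share of all genes higher was 12.5%. Among the 26, other models overlap 11.2% of the exons of Ccdc78, 8.5% of those of Ccdc42b and 8.4% of those of Cfap52. The 26 genes lie on 13 chromosomes, at most 5 of them on a single chromosome, which is chromosome 5.

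The 26 genes summed to 318, 2430 and 1810 CPM in IP 1, IP 3 and IP 4, against 109 to 122 CPM in Input. The other 112 tested members summed to 2150 to 2990 CPM in IP and 2450 to 2640 CPM in Input. Measured as the log2 ratio to the mean Input, the 26 had medians of 1.25, 4.95 and 4.44 in IP 1, IP 3 and IP 4, and the medians of the 112 were -0.16, 0.12 and 0.03. Against the Input of its own lane, IP 1 was higher in 24 of the 26, and IP 3 and IP 4 in all 26. IP 1 was the lowest IP library in all 26, and IP 3 was above IP 4 in 22. These values chose the 26 genes, so they describe the group and do not test it. Without IP 1, members called higher numbered 6 of 6 in the doublet list, 4 of 6 in the central pair list, 9 of 9 among spoke and dynein regulators, 3 of 17 in the germ line list and 13 of 45 outside the lists. In the nuclear, membrane and signalling lists they numbered 1 of 12, 1 of 17 and 2 of 11, beside 12.5% of all genes. By prefix they were 14 of 17 Cfap and 30 of 123 Ccdc symbols.

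The 26 differed in how far IP 1 lagged. In 5 of them (Ccdc108, Ccdc157, Cfap44, Cfap46 and Cfap69) the highest IP library was at most 3 times the lowest, which held for 60.7% of all tested genes, while the median ratio of highest to lowest IP over the 26 was 10.4. The 5 had log2 folds of 1.32 to 2.59, and 3 of them are central pair genes.

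**Figure D3:**
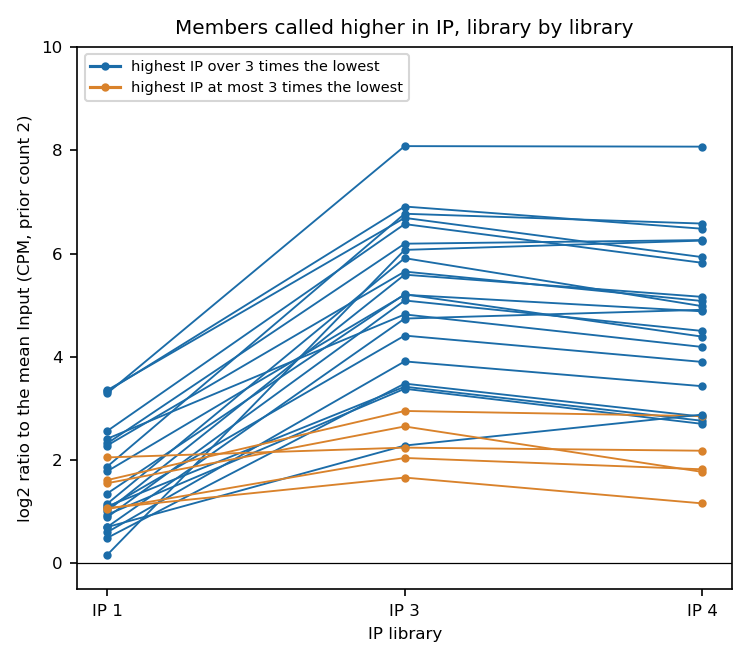
Log2 ratio to the mean Input in each IP library for the 26 members called higher, with a line joining the values of each gene. The medians of 1.25, 4.95 and 4.44 put IP 1 far below the other libraries. Orange lines are the 5 genes whose highest IP library is at most 3 times the lowest.

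Levels between genes were compared as CPM per kb of merged exon. By the mean of the IP libraries, Ccdc153 ranked first among the members with 192 CPM per kb, followed by Cfap36 with 91.0, Cfap126 with 87.3, Ccdc92 with 36.9 and Ccdc113 with 33.4 CPM per kb. That order rested on IP 3 and IP 4, where Ccdc153 stood at 315 and 234 CPM per kb and Cfap36 at 120 and 90.2 CPM per kb. In IP 1 Cfap36 ranked first with 63.0 CPM per kb, and Ccdc153 followed with 26.4 CPM per kb. In Input the order began with Cfap36 at 57.6, Ccdc92 at 48.0, Ccdc47 at 22.5 and Ccdc6 at 21.4 CPM per kb, while Ccdc153 stood at 2.61, Cfap126 at 1.64 and Ccdc113 at 1.10 CPM per kb. Cfap36, which binds the small GTPase Arl3, was thus abundant in both. It stood at 173, 329 and 248 CPM in IP and 163, 169, 139 and 161 CPM in Input, where every Input lay below every IP (log2 fold 0.66 ± 0.23, adjusted p in edgeR 0.117, without IP 1 0.00135).

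**Figure D4:**
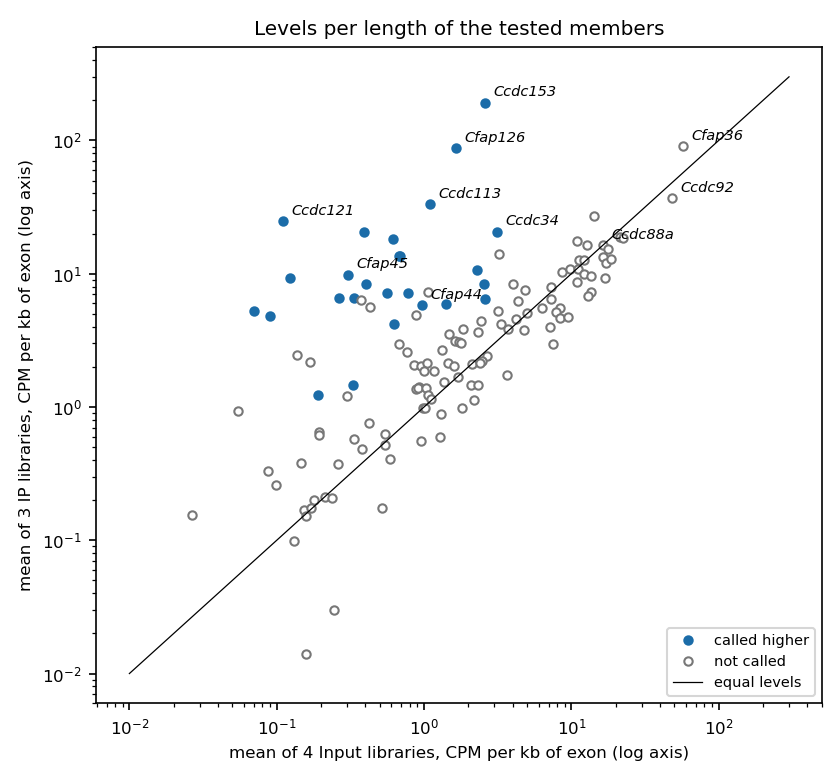
Mean level of each tested member in the 3 IP libraries (vertical) against the 4 Input libraries (horizontal), both in CPM per kb of merged exon on log axes. Filled points are the 26 called higher and the line marks equal levels. Ccdc153, at 192 CPM per kb in IP and 2.61 in Input, lies far above the line, and Cfap36 and Ccdc92 lie near it at the upper right.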

How the data were processed

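The authors deposited 1 table of raw counts per gene symbol for each library. The reads were aligned to mm10 with STAR 2.0.0e and counted with HTSeq, per the submitters' processing notes. The sources used here do not give the annotation, the settings or the use of strand. Lines that name no gene held 40.1 to 52.1% of each library and were left out. Genes were filtered with filterByExpr (minimum count 10, minimum total 15), scaled with TMM factors and fitted with edgeR 4.0.16 in R 4.3.3 (quasi-likelihood test, IP against Input, 7 libraries, Benjamini-Hochberg over 17375 genes, threshold 0.05). The fit was first checked on simulated counts with the same dispersion in every gene and the same fold in every IP library. That check does not cover an IP library that lags, as IP 1 did. SE is the size of the log2 fold over the square root of F, and log2 ratios carry a prior count of 2. Nothing in the labels says that libraries came from separate animals, so p-values measure the spread between these libraries, which may be technical. Same-numbered IP and Input libraries share a lane in the labels and were treated as pairs in the blocked fit. Their deviations correlated at 0.032, 0.043 and 0.026, and no other Input gave a higher value for the same IP.

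Alternatives were DESeq2 1.42.0, limma 3.58.1 (voom), RLE and total-count scaling, no filter, the replicate block, and each library left out. The block without IP 1 and the restriction to members with no overlapping model were added after seeing the data. The members, the role lists and the marker lists were chosen with earlier results of these data known. Exons and overlaps come from GENCODE M21 (GRCm38), in which 137 members matched by symbol and 16 through a synonym, and promoters from RefSeq (GRCm38.p6), in which 121 matched. Protein sequences were not analysed here.

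Genes were named by a rule: Ccdc153, Ccdc121 and Cfap44, the 10 called members with the largest fold and a mean of at least 1 CPM, the 5 with the smallest p among negative folds, the 2 with the smallest p in each role list, and the 5 with the highest IP CPM per kb. The other genes named were chosen after their values were seen.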

Additional observations from a re-analysis of the deposited data

Results flagged for a closer look

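In 4 of the 59 named genes a single Input library lay far from the other Inputs by Dixon's ratio, and chance flags about 1 in 20 groups. Ccdc81 stood at 4.05 CPM in Input 4, against 0.782 to 1.08 CPM in the other Inputs (ratio 0.909). Cfap53 stood at 2.94 CPM in Input 1, against 0.273 to 0.604 CPM in the others (0.876). Cfap70 stood at 7.10 CPM in Input 3, against 1.74 to 2.48 CPM in the others (0.863). Ccdc102a stood at 1.30 CPM in Input 1, against 0.0246 to 0.191 CPM in the others (0.869). In all 4 genes the stray Input lay above IP 1, and IP 3 and IP 4 still lay above it.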

How the results depend on the processing

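The count of 26 members higher in IP was 3 with limma-voom, 6 with the replicate block, and 42 with the block and without IP 1. Among members with no overlapping model, a smaller set, it was 16 of 84 (19.0%), against 18.8% of all tested members. The count ran from 0 to 44 over the fits that leave out 1 library. The count of members lower, 0 with all libraries, was 6 with DESeq2 and ran from 0 to 5 over those fits. The 15 axonemal members higher became 3 with limma-voom and 3 with the replicate block, with a leave-one-out range of 0 to 19. Among axonemal members with no overlapping model, again a smaller set, 8 were higher. The 3 basal body and centriole members became 0 with limma-voom, 1 with no low-count filter and 1 with the replicate block, with a range of 0 to 5. The median log2 fold of 0.52 was 0.29 with the block and 0.35 to 0.59 with a library left out. With RLE and total-count scaling the same 26 members were called, and with no filter 20 of them and Ccdc173. Over 59 named genes and all alternatives, 535 of 767 results kept their direction and side of the threshold, 190 lost their call, 36 gained one and 6 changed sign. The 6 were Ccdc22 (-0.02, range with a library left out to 1.72) and Cfap74 (-0.19, to 0.68) without IP 1, Ccdc13 (-0.02, to 1.51) without IP 3, and Ccdc88a with total counts (0.04), without IP 4 (0.08) and without Input 4 (0.06, range from -0.06), none of them called. The cause was not tested. Members near 3 counts cannot be compared at this depth.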
